A study of Triticum aestivum with 18 samples.

Results

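The loci described here are those that the annotation of a wheat expression table ties to phosphate transport, to the response to phosphate shortage, or to the membrane lipids that replace phospholipids when phosphate is short. A locus was taken if its description named an SPX domain, a phosphate transporter, sulfoquinovosyl lipid synthesis or a galactolipid or glycerophosphodiester enzyme, or if its Gene Ontology text held "phosphate starvation" or "phosphate ion transport". Of 115478 loci in the table, 64 met this rule, 19 by description and 45 by Gene Ontology text alone. No locus described as a glycerophosphodiesterase or a digalactosyldiacylglycerol synthase was among them. The search terms used the annotation and no expression value.

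Bread wheat (Triticum aestivum) was sampled at grain filling, when leaves export sugars and nutrients to the grains of the spike. The 18 RNA-seq libraries fall into 6 groups of 3. Flag leaves came from plants grown normally, from plants that had undergone half-spike removal, and from plants that had undergone whole-spike removal. Grains came from normally grown plants, from plants that had undergone half-spike removal, and from plants whose spikes were shaded and whose leaves were all removed, so shading and leaf loss cannot be told apart in that group. The labels name no cultivar and no interval between treatment and sampling. Nothing in them ties a library to its own plant or pool of plants, so the p-values below measure the spread between libraries, which may be partly technical. Expression is given as FPKM, a fragment number normalised by the authors to transcript length and library size, and was scaled between libraries as described under the processing.

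Plants keep phosphate in balance by moving it across membranes with transporters of the PHT and PHO1 families and by sensing it through SPX domain proteins, which hold back the transcription factors of the starvation response while phosphate is ample. The E2 enzyme 24, called PHO2 in Arabidopsis, marks PHT1 and PHO1 transporters for degradation. When phosphate is short, leaves of many plants break down phospholipids and fill their membranes with sulfolipid and galactolipid. SQD1 makes the sulfolipid head group from UDP-glucose and sulfite, SQD2 attaches it to diacylglycerol, phosphatidate phosphatase supplies diacylglycerol, and MGD1 makes the galactolipid monogalactosyldiacylglycerol of the chloroplast. At grain filling, phosphate is also withdrawn from leaves for storage in the grain.

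The rule also brought in loci whose link to phosphate is less direct, and these were kept. They are 3 PDR2 ATPases (a P5-type pump of the endoplasmic reticulum that in Arabidopsis acts in the root response to low phosphate), 3 loci of histidine kinase 3 (a cytokinin receptor in Arabidopsis), 4 carbamoyl-phosphate synthase and 3 aspartate carbamoyltransferase loci of pyrimidine synthesis, 3 hexose-1-phosphate uridylyltransferases of galactose metabolism, a plastid polyribonucleotide nucleotidyltransferase, a phospholipase D alpha 4, a triose-phosphate transporter domain protein and a locus with a glycolipid glycosyltransferase term. A further 14 loci carry a phosphate starvation term and no description, and they are named below by locus and chromosome arm. The remaining roles are 11 phosphate transporters, 3 PHO1 homolog 1 loci, 3 SPX domain-containing protein 4 loci, 3 SQD1 loci and 1 SQD2 locus, 3 phosphatidate phosphatases (by enzyme number), 3 MGD1 loci and 3 E2 24 loci. Most of these trios carry 1 copy on each of the A, B and D genomes. Because such copies are nearly identical in sequence, a read of one may have been placed on another, and the split among copies is uncertain. The letter U stands for a sequence not placed on a chromosome.

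A locus was tested in a tissue if its FPKM reached 1 in at least 3 of the 9 libraries. This held for 53 of the 64 loci in leaf and 42 in grain, with 41 tested in both, 12 in leaf only and 1 in grain only. The 10 loci tested in neither tissue were 5 phosphate transporters, 2 PHO1 homolog 1 loci, the phospholipase D alpha 4 and 2 starvation-term loci. In all libraries the transporters among these stayed below 1 scaled FPKM, and the PHO1 homolog 1 locus on 7AS reached 1.86 in a control leaf library.

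The libraries differed in ways that the loci's values must be read beside. The FPKM sums ranged from 409211 to 779076, and relative depth from 0.815 to 1.06 of control leaf library 1. Loci with no gene name took 89.9% of the FPKM sum in shaded grain library 2, where 12276 loci reached FPKM 1 against at least 36709 in each other library. Its scale factor was 0.232, so its values are multiplied most. In leaf, unnamed loci took 13.9% to 19.7% in controls, 27.0% to 34.1% after half-spike removal and 25.8% to 34.2% after whole-spike removal. Loci with "ribosomal RNA" in their description or gene name took 1.13% to 3.25%, 6.47% to 9.75% and 6.21% to 8.40% in the same order. Leaf markers (chlorophyll a-b binding proteins and Rubisco small subunits, 78 loci) summed to 1670 to 8106 FPKM in leaf libraries and 4.53 to 57.0 in grain libraries. Gliadin and glutenin transcripts of the endosperm (17 loci) were at 38.0 and 57.8 FPKM in control leaf libraries 2 and 3 and at or near 0 in the other 7 leaf libraries. In grain these endosperm markers moved with treatment. They summed to 5532 to 6402 FPKM in controls, 2545 to 3228 after half-spike removal and 171 to 2273 in shaded grain, lowest in shaded library 2. Their part in the grain results was not tested.

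The first question is what taking off the whole spike, which removes the grains that draw on the leaf, did to these loci in the flag leaf. Of the 53 tested, 25 were lower and 1 was higher than in control leaves by limma with a Benjamini-Hochberg adjusted p under 0.05, here called a change. Over all 48696 genes tested in leaf, 9.64% were lower and 10.4% higher, 20.0% in all. The median change of the 53 loci was -0.61 on the log2(scaled FPKM + 1) scale, against -0.01 over all genes tested. Of the 25 that fell, 22 fell by at least 1 unit on that scale. Among the 25, 4 (MSTRG.13227, MSTRG.65852, MSTRG.66036 and MSTRG.71768) had FPKM 1 in no whole-spike library, so they were tested only through the groups where they are high. Their direction was set by the filter. Of the other 49 loci, 21 were lower and 1 was higher. The 3 libraries of each group did not overlap for 36 of the 53 loci, while 37.7% of all genes tested showed no overlap.

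The summed level is carried by the most abundant loci, so it does not measure the shift across the set. In control leaves SQD1 with SQD2 averaged 489 scaled FPKM, the starvation-term loci without description 479 and the transporters 289, of 1640 in all. All 64 loci together stood at 1682, 1616 and 1623 scaled FPKM in the control leaves, at 1797, 1707 and 1477 after half-spike removal, and at 471, 478 and 486 after whole-spike removal. The half-spike libraries thus lay on both sides of the controls and the whole-spike libraries far below them. As a share of the FPKM of named loci alone, the set took 0.524% to 0.550% in controls, 0.386% to 0.493% after half-spike removal and 0.137% to 0.162% after whole-spike removal. In such bulk tissue, fewer cells of a type and less RNA per cell cannot be told apart. The ribosomal RNA and unnamed shares moved with treatment too, with overlapping ranges in the half-spike and whole-spike leaves, and their part in the result was not tested.

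**Figure D1:**
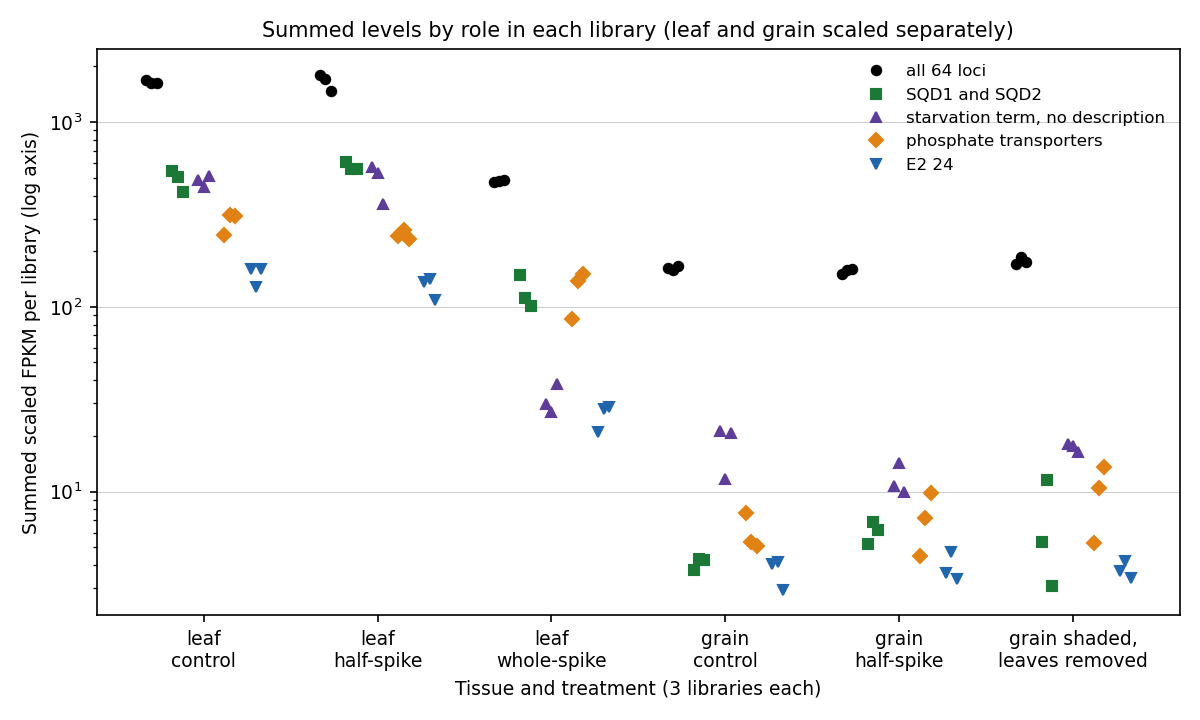
Summed scaled FPKM per library (log axis) for all 64 loci and for 4 subsets, in the 6 groups of 3 libraries, each point a library. The subsets are SQD1 with SQD2, the starvation-term loci without description, the phosphate transporters and E2 24. The whole-spike leaves lie at 471 to 486 for all loci against 1616 to 1682 in control leaves, and grain libraries lie between 150 and 187 in every treatment.

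Transcripts for both dedicated steps of sulfolipid synthesis fell. SQD2 on chromosome 3B, the enzyme that completes the lipid, stood at 93.2, 89.2 and 97.5 scaled FPKM in control leaves, 68.2, 80.0 and 73.9 after half-spike removal, and 6.21, 2.92 and 6.93 after whole-spike removal. The 3 groups did not overlap. SQD2 (MSTRG.27181) was 17.4 times lower in the mean after whole-spike removal, a log2 change of -3.96 ± 0.25 (SE, n = 3 against 3; limma adjusted p = 6.27e-05).

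SQD1, which makes the head group, fell at all 3 loci. The 1DL copy (MSTRG.7695), the highest of the 3 in each of the 9 leaf libraries, stood at 220, 208 and 173 in controls, 274, 242 and 237 after half-spike removal and 75.9, 63.2 and 54.0 after whole-spike removal. Its log2 change after whole-spike removal was -1.63 ± 0.21 (SE; limma adjusted p = 0.00143). The 1AL copy (MSTRG.1835) went from 127, 121 and 88.3 to 38.5, 24.9 and 22.7, a change of -1.95 ± 0.24 (SE), and the U copy (MSTRG.77262) from 101, 86.4 and 61.6 to 28.1, 20.9 and 17.1, a change of -1.86 ± 0.24 (SE). After half-spike removal the SQD1 means were 1.22 to 1.31 times the control means, none of them a change (log2 0.31 to 0.40, limma adjusted p = 0.55 to 0.645). The summed SQD1 and SQD2 level was 420 to 542 in controls and 101 to 149 after whole-spike removal.

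The plastid enzyme that in Arabidopsis supplies UDP-glucose for sulfolipid, UTP--glucose-1-phosphate uridylyltransferase 3 (UGP3), is outside the 64 loci. Its 3 copies on 1AL, 1BL and 1DL all fell after whole-spike removal, by 1.91, 1.55 and 1.94 on the log2 scale (limma adjusted p = 5.51e-04, 9.57e-04 and 0.00383). The 1AL copy (MSTRG.458) went from 24.2 ± 2.84 to 5.82 ± 1.48 scaled FPKM (SD, n = 3) and stood at 23.0 ± 2.90 after half-spike removal.

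The 3 phosphatidate phosphatase loci, which release diacylglycerol from phosphatidate and carry a galactolipid synthesis term, also fell. The 1BL copy (MSTRG.5124) stood at 15.8, 12.6 and 13.0 in controls, 19.8, 13.8 and 11.1 after half-spike removal and 4.62, 3.62 and 3.55 after whole-spike removal. Its log2 change was -1.59 ± 0.21 (SE; limma adjusted p = 0.00158), and the 1AL (MSTRG.2084) and 1DL (MSTRG.7715) copies changed by -1.47 ± 0.26 and -1.25 ± 0.22 (SE). Whole-spike values lay below all control values at each of the 3 loci.

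No copy of the galactolipid synthase MGD1 was called lower. Its 5BL copy (MSTRG.48437) was the 1 locus of the set that rose, from 3.38, 2.95 and 2.96 to 5.10, 5.10 and 3.84 scaled FPKM, a log2 change of 0.46 ± 0.14 (SE; limma adjusted p = 0.0475). That call was lost under 10 of 16 alternatives. The 5AL copy (MSTRG.43906) had a log2 difference of 0.44 ± 0.15 (adjusted p = 0.0634), with the lowest of its whole-spike values (6.65, 6.61 and 5.10) next to the highest of its control values (5.08, 3.61 and 4.02). The 5DL copy (MSTRG.51858) had 0.27 ± 0.21 (adjusted p = 0.414) with overlapping libraries. The locus with a glycolipid glycosyltransferase term (MSTRG.36676) had a log2 difference of -0.54 ± 0.22 (adjusted p = 0.112).

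**Figure D2:**
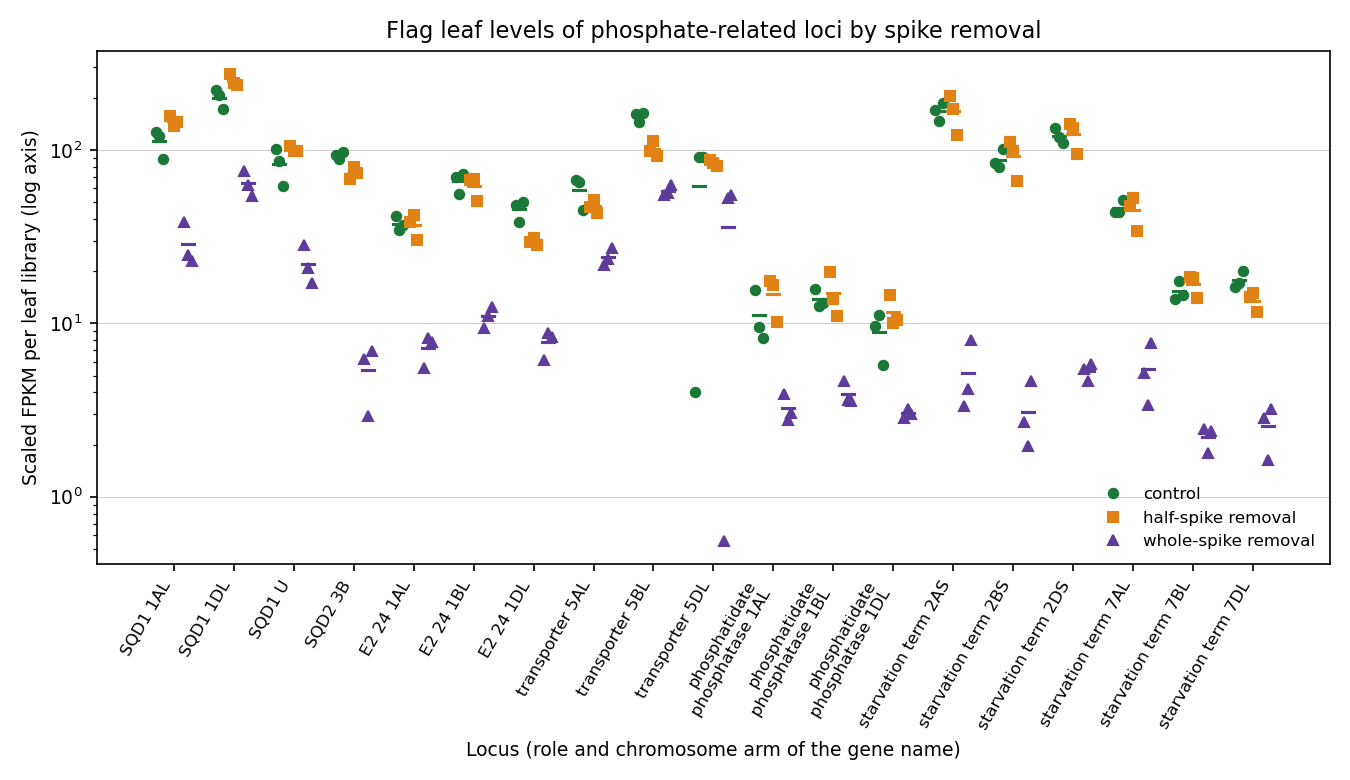
Scaled FPKM per flag leaf library (log axis) for 19 loci, with symbols for the 3 treatments. Short bars mark the means of 3 libraries. The loci are those of SQD1, SQD2 and E2 24, with phosphate transporters, phosphatidate phosphatases and starvation-term loci. The whole-spike values lie below the control and half-spike values at every locus drawn except the transporter on 5DL, where control library 1 (4.03) is also low.

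The E2 24 loci, whose Arabidopsis counterpart PHO2 limits phosphate transporter protein, fell at all 3 copies. The 1BL copy (MSTRG.3611) stood at 69.5, 55.6 and 72.6 in controls, 67.4, 68.4 and 50.7 after half-spike removal and 9.44, 11.0 and 12.5 after whole-spike removal. It changed by -2.48 ± 0.19 (SE; limma adjusted p = 1.58e-04), which is 6.0 times lower in the mean. The 1AL (MSTRG.1832) and 1DL (MSTRG.8203) copies changed by -2.25 ± 0.19 and -2.41 ± 0.18 (SE). The 3 copies summed to 128 to 160 scaled FPKM in controls, 109 to 142 after half-spike removal and 21.1 to 28.6 after whole-spike removal. In half-spike leaves the 1DL copy lay at 29.6, 31.0 and 28.3 against control values of 48.5, 38.3 and 49.8, without overlap (log2 -0.59 ± 0.18, limma adjusted p = 0.193), while the other copies overlapped with their controls.

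Phosphate transporters fell at some loci, by 1.24 to 1.60 on the log2 scale. Of 11 loci, 5 were tested in leaf and 3 fell. The largest of the 3 falls, at MSTRG.13227 on 2AS, had its direction set by the filter. The 5BL locus (MSTRG.48142), a phosphate transporter by its Gene Ontology text, stood at 161, 145 and 164 in controls, 99.2, 112 and 92.3 after half-spike removal and 55.0, 56.4 and 62.7 after whole-spike removal. The 3 groups did not overlap and were ordered by how much of the spike was taken. Its change was -1.42 ± 0.17 after whole-spike removal (SE; limma adjusted p = 0.00115) and -0.63 ± 0.17 after half-spike removal (adjusted p = 0.159, unadjusted p = 0.0055), so the half-spike step missed the threshold.

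The 5AL locus (MSTRG.44725) went from 67.0, 65.0 and 45.2 in controls to 21.8, 23.5 and 27.2 after whole-spike removal, a change of -1.24 ± 0.20 (SE; limma adjusted p = 0.00344), with half-spike values of 46.9, 51.6 and 43.5 that overlapped with the controls. The low 2AS locus (MSTRG.13227) went from 2.11, 3.1 and 2.43 to 0.0294, 0.409 and 0.0853, a change of -1.60 ± 0.19 (SE). The 5DL locus (MSTRG.52891), described as a phosphate transporter protein, is named because its libraries did not follow the groups. It stood at 4.03, 90.9 and 91.1 in controls, 87.5, 83.9 and 80.5 after half-spike removal, and 0.559, 52.5 and 55.0 after whole-spike removal. Its difference of -1.06 ± 1.47 (SE; limma adjusted p = 0.656) turned to 0.65 (adjusted p = 0.736) without whole-spike library 1, was -2.45 (adjusted p = 0.279) without control library 1, and was -0.75 (adjusted p = 0.0853) with that library and control library 1 both left out, a choice made after seeing the values. The plastid transporter 2-1 on 6AL (MSTRG.55407), a low-affinity carrier of the chloroplast envelope in Arabidopsis, had 10.1, 9.07 and 6.23 in controls and 7.96, 4.30 and 4.71 after whole-spike removal, with overlap and a log2 difference of -0.53 ± 0.29 (adjusted p = 0.234).

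The 3 largest changes after whole-spike removal among the 53 loci were at loci with a starvation term and no description. Of 14 such loci, 12 were tested in leaf and 9 fell. Among the 9, MSTRG.65852, MSTRG.66036 and MSTRG.71768 had their direction set by the filter. A trio on the short arms of the group-2 chromosomes was among the most abundant of the set in control leaves. Its 2AS member (MSTRG.12980) stood at 170, 147 and 187 in controls, 206, 172 and 122 after half-spike removal and 3.34, 4.19 and 8.04 after whole-spike removal. It changed by -4.84 ± 0.30 (SE; limma adjusted p = 5.94e-05), 32.4 times lower in the mean.

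The 2BS (MSTRG.18166) and 2DS (MSTRG.22008) members changed by -4.49 ± 0.28 and -4.27 ± 0.20 (SE), from means of 88.1 and 121 to 3.1 and 5.30 scaled FPKM. After half-spike removal the trio's log2 differences were -0.03, 0.04 and 0.02. In controls and half-spike leaves the 2AS member was the highest of the trio in every library, whereas in whole-spike leaf libraries 1 and 2 the 2DS member was higher.

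A second trio on the long arms of the group-7 chromosomes carries, beside the starvation term, terms for the nucleus, the response to cold and the positive regulation of the starvation response. Its 7AL member (MSTRG.65589) stood at 43.7, 43.7 and 51.3 in controls, 47.4, 52.9 and 34.2 after half-spike removal and 5.17, 3.4 and 7.70 after whole-spike removal, a change of -2.93 ± 0.26 (SE; limma adjusted p = 2.86e-04). The 7BL (MSTRG.68844) and 7DL (MSTRG.71730) members changed by -2.35 ± 0.16 and -2.42 ± 0.20 (SE). Whole-spike and control libraries did not overlap at any member of either trio.

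The other 3 that fell were low to begin with, and they were tested only through the groups where they are high. MSTRG.71768 on 7DL went from 5.40, 4.45 and 6.31 to 0.0887, 0.250 and 0.394. MSTRG.66036 on 7AL went from 5.38, 2.35 and 6.05 to 0.0196, 0.0202 and 0.0787, and MSTRG.65852 on 7AL from 4.06, 2.00 and 2.19 to 0.0679 in a library and a listed value of 0 in the other libraries. After half-spike removal MSTRG.66036 and MSTRG.65852 spread widely, over 2.02 to 12 and 2.01 to 9.20, around log2 differences of 0.55 and 0.79 that did not pass the test. The 3 starvation-term loci that did not pass after whole-spike removal, MSTRG.11101, MSTRG.20547 and MSTRG.16092 on the long arms of group 2, had log2 differences of -0.74, -0.15 and -0.12. MSTRG.11101 stood between 0.00621 and 0.0160 in 4 treated libraries and stood at 2.28 and 3.05 in the other 2, so its values were split within groups.

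The loci of the SPX and PHO1 proteins, which sense and export phosphate, did not pass against control where they were tested. SPX domain-containing protein 4 on 5BL (MSTRG.50051) stood at 3.02, 3.26 and 3.27 in controls, 2.51, 1.77 and 2.41 after half-spike removal and 3.32, 3.92 and 3.98 after whole-spike removal. The half-spike libraries lay below the controls and the whole-spike libraries above them, with log2 differences of -0.38 ± 0.13 and 0.18 ± 0.13 (SE; limma adjusted p = 0.263 and 0.365). Between the treatments it was higher after whole-spike than after half-spike removal, by 0.56 ± 0.13 (adjusted p = 0.0192), as was its 5DL copy (MSTRG.53085) by 0.72 ± 0.14 (adjusted p = 0.00879). The 4AL copy (MSTRG.36181) was uneven within groups, with 0.784, 0.695 and 3.27 after whole-spike removal. PHO1 homolog 1 on 7DS (MSTRG.74377) stood at 3.22, 2.34 and 2.13 in controls and 1.80, 1.87 and 2.68 after whole-spike removal, a log2 difference of -0.19 with a 95% interval of -0.58 to 0.20. Of the 3 PHO1 homolog 1 loci, only this 1 was tested in leaf. The untested 7AS copy (MSTRG.66897) stood at 1.86, 1.26 and 0.342 in controls and 0.182, 0.109 and 0.276 after whole-spike removal. The untested 7BS copy stood at 1.18, 0.637 and 0.196 in controls and 0.162, 0.271 and 0.573 after whole-spike removal.

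Of the loci with a less direct link, 3 of 19 tested passed, all lower. Over all genes tested, 9.64% were lower and 10.4% higher, 20.0% in all. PDR2 differed by 0.08 to 0.17 at its 3 loci, none a change, and the 1BL copy (MSTRG.4428) stood at 6.67, 5.90 and 5.83 in controls and 7.20, 7.02 and 6.79 after whole-spike removal. Carbamoyl-phosphate synthase small chains on 5AL (MSTRG.44975) and 5DL (MSTRG.53350) fell by 0.68 and 0.70 on the log2 scale (limma adjusted p = 0.0176 and 0.0156), the latter from 27.0, 24.6 and 23.5 to 18.0, 12.9 and 14.4. Without control leaf library 1 neither passed (adjusted p = 0.0663 and 0.0612), and without whole-spike library 2 MSTRG.53350 did not (adjusted p = 0.0658). The large chain on 3AL (MSTRG.24491) had a difference of 0.49 ± 0.16 (adjusted p = 0.0657), opposite in sign to the small chains.

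Histidine kinase 3 fell at 1 of 3 loci, the 3B copy (MSTRG.26444), by 0.61 on the log2 scale (limma adjusted p = 0.0217), from 15.3, 15.9 and 15.0 to 10.5, 10.1 and 8.73. The 3AL (MSTRG.24075) and 3DL (MSTRG.30823) copies also had whole-spike values below all controls, with log2 differences of -0.35 ± 0.13 and -0.40 ± 0.15 (SE; adjusted p = 0.0986 and 0.0899, unadjusted p = 0.0275 and 0.0239). The half-spike values of the 3B copy, 8.81, 11.4 and 12.1, were also below all controls (log2 -0.49, adjusted p = 0.217). This was the 1 locus of the 25 that was lower than control but not lower than half-spike leaves. The aspartate carbamoyltransferases had differences of -0.31 to -0.08, the uridylyltransferases of -0.22 to 0.19, the polyribonucleotide nucleotidyltransferase (MSTRG.17366) of 0.20 and the triose-phosphate transporter domain protein (MSTRG.27681) of -0.18, and none of them passed.

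**Figure D3:**
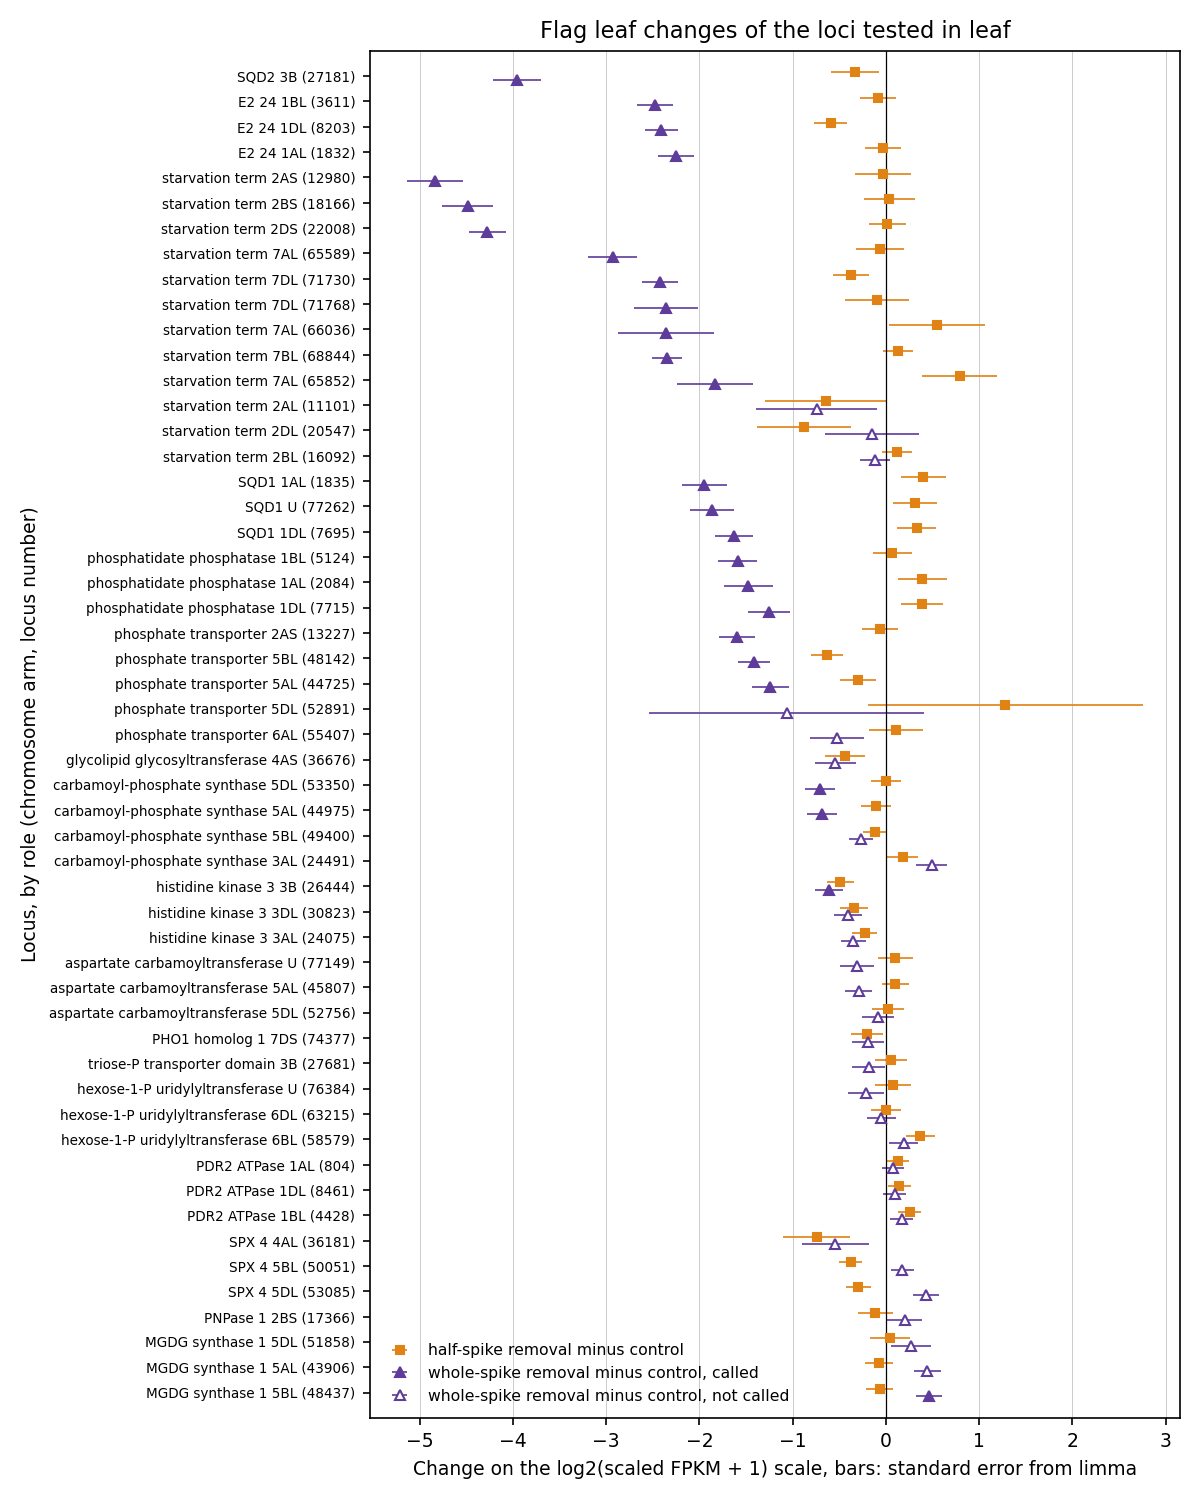
Change against control on the log2(scaled FPKM + 1) scale with standard error from limma for the 53 loci tested in leaf, grouped by role. Squares mark half-spike removal and triangles whole-spike removal (filled where called). The half-spike changes lie between -0.88 and 1.28 with none called, while 25 whole-spike changes between -4.84 and -0.61 are called lower.

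The second question is whether half-spike removal moved the same loci in the leaf. None of the 53 passed in either direction by limma, where 1.67% of all genes tested passed (1.15% higher and 0.520% lower). An unadjusted p under 0.05 was found at 6 of the 53, a share near the 12.1% of all genes tested. The median difference was 0.00 on the log2 scale, with 26 loci lower and 27 higher. The groups did not overlap at 15 of the 53 loci, against 21.0% of all genes tested. The 6 were an SPX4 copy (MSTRG.50051), a uridylyltransferase (MSTRG.58579), 2 histidine kinase 3 copies (MSTRG.26444 and MSTRG.30823), the 5BL transporter (MSTRG.48142) and the 1DL copy of E2 24 (MSTRG.8203), and all but the uridylyltransferase were lower.

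At the 25 loci that fell after whole-spike removal, the half-spike differences ranged from -0.63 to 0.79 on the log2 scale with a median of -0.03, and the half-spike mean was above the control mean at 13. These 25 were chosen by the whole-spike result, and both contrasts share the control libraries. At 24 of them the 95% interval of the half-spike difference lay above the whole-spike estimate. The direct test of whole-spike against half-spike leaves called 24 of the 53 loci lower and 4 higher, against 8.64% and 7.87% of all genes tested (16.5% in all), and those 24 were all among the 25, with the whole-spike libraries shared by both contrasts. The 24 include the 4 loci with FPKM 1 in no whole-spike library, whose direction was set by the filter. The 4 higher were the SPX4 copies on 5BL and 5DL and the MGD1 copies on 5AL (MSTRG.43906, 0.52 ± 0.15, limma adjusted p = 0.042) and 5BL (MSTRG.48437, 0.53 ± 0.14, adjusted p = 0.0338). The number higher was 2 without half-spike library 1 or whole-spike library 1, and 1 without half-spike library 2 or whole-spike library 2.

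In grain the 64 loci together summed to 157 to 167 scaled FPKM in control grain, 150 to 159 after half-spike removal and 171 to 187 in shaded grain. None of the 42 tested passed after half-spike removal by limma, where 0.0306% of all genes tested passed (0.00655% higher and 0.0240% lower). An unadjusted p under 0.05 was found at 4 of the 42, against 6.43% of all genes tested. The groups did not overlap at 6 of the 42, against 12.8% of all genes. The nearest to a call was MSTRG.22008, the 2DS starvation-term locus, at 2.02, 0.692 and 1.77 in control grain and 0.302, 0.528 and 0.242 after half-spike removal (log2 -0.84 ± 0.27, limma adjusted p = 0.571). The SQD1 U copy (MSTRG.77262) lay at 0.702, 0.915 and 0.939 in control grain and 1.45, 1.84 and 1.52 after half-spike removal, without overlap (log2 0.49 ± 0.18, adjusted p = 0.658).

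The loci that were abundant in leaf had low levels in grain, and the highest in grain were of pyrimidine synthesis. The most abundant transporter there, MSTRG.44725 on 5AL, stood at 1.28, 1.72 and 1.36 in control grain, 1.10, 1.77 and 2.89 after half-spike removal and 1.80, 2.69 and 3.78 in shaded grain. The highest E2 24 copy, MSTRG.3611, stayed within 1.40 to 2.07 in all 9 grain libraries. SQD2 (MSTRG.27181) was not tested in grain, with 0.0476 to 0.116 in control grain, 0.192 to 0.658 after half-spike removal and 0.113 to 1.70 in shaded grain, the last in the library that stands apart. By contrast, carbamoyl-phosphate synthase on 5DL (MSTRG.53350) stood at 23.0 to 25.8 in control grain, 23.4 to 24 after half-spike removal and 26.4 to 28.6 in shaded grain. With the control libraries of both tissues scaled together, it stood at 27.9, 31.2 and 31.8 in grain and 27.3, 24.9 and 23.8 in leaf. That difference was not called. PDR2 on 1BL (MSTRG.4428) lay at 5.90 to 7.89 in all 9 grain libraries.

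Shading the spike and removing all leaves changed 1 of the 42 loci, where 0.306% of all genes tested were higher and 1.45% lower, 1.76% in all. The groups did not overlap at 11 of the 42, against 21.0% of all genes. The locus was histidine kinase 3 on 3DL (MSTRG.30823), named because of its call although its level is low. It went from 2.50, 2.40 and 2.55 to 3.60, 4.77 and 4.33 scaled FPKM, without overlap, a log2 change of 0.58 ± 0.11 (SE; limma adjusted p = 0.0422). The 3AL (MSTRG.24075) and 3B (MSTRG.26444) copies had differences of 0.43 and 0.43 (adjusted p = 0.0572 and 0.132), also without overlap. The call of MSTRG.30823 was lost under 11 of 16 alternatives, among them leaving out shaded library 2, which stands apart, with values from 0.16 to 0.74 on the log2 scale. Transporters, SQD1 and E2 24 did not pass, with log2 differences of -0.05 to 0.58, 0.14 to 0.36 and -0.05 to 0.06. An unadjusted p under 0.05 was found at 5 of the 42 loci, against 16.2% of all genes tested.

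Whether the half-spike response differed between leaf and grain was tested directly on the 12 control and half-spike libraries. No locus of 39 passed by limma, where 0.0821% of all genes tested passed (0.0347% higher and 0.0473% lower). Over all genes tested, 13.8% had an unadjusted p under 0.05, as did 4 of the 39 loci. These were the 3 histidine kinase 3 copies, with leaf minus grain differences of -0.30, -0.50 and -0.46, and the 1DL copy of E2 24 at -0.68 ± 0.21 (SE; limma adjusted p = 0.195).

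Control flag leaves and control grains differed at most of these loci. Of 54 tested in the 6 control libraries, 38 were higher in leaf and 6 higher in grain, where 38.7% and 31.8% of all genes tested were, 70.5% in all. The groups did not overlap at 47 of the 54, against 75.2% of all genes. The median difference, leaf minus grain, was 1.40 on the log2(scaled FPKM + 1) scale against 0.10 over all genes tested. Of the 54, 11 had FPKM 1 in no grain library and 1, the 6DL transporter (MSTRG.63218), in no leaf library. These 12 were tested only through the tissue where they are high, so their direction was set by the filter. SQD2 and the plastid transporter on 6AL (MSTRG.55407) are among them. Of the other 42, with FPKM 1 in libraries of both tissues, 27 were higher in leaf and 5 higher in grain. Without control leaf library 3, 25 were higher in leaf, of 43 loci tested, since a locus seen only in leaf then falls short of the 3 libraries the filter asks for. SQD2 (MSTRG.27181), its direction set in this way, had the largest difference of the set, at 6.44 ± 0.11 (SE). Its means were 94.4 in leaf and 0.10 in grain. SQD1 differed by 5.31 to 6.06, E2 24 by 4.15 to 4.47 and the group-2 starvation-term trio by 5.49 to 6.04. The 3 chromosome 5 transporters were higher in leaf by 3.76 to 5.85. The plastid transporter on 6AL, its direction set by the filter, differed by 3.06 ± 0.18.

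The 6 loci higher in grain were a transporter, a starvation-term locus, 2 carbamoyl-phosphate synthases and 2 PDR2 ATPases. The transporter on 6DL (MSTRG.63218) was at a mean of 1.75 scaled FPKM in control grain and 0.00811 in control leaf. It stayed between 0.854 and 1.68 in all 9 grain libraries when these were scaled on their own. Carbamoyl-phosphate synthase on 3AL (MSTRG.24491) and 5BL (MSTRG.49400) was 2.33 and 2.31 times higher in grain. PDR2 was 1.86 times higher on 1AL (MSTRG.804) and 1.40 times higher on 1DL (MSTRG.8461), and MSTRG.20547 on 2DL was 1.34 times higher.

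**Figure D4:**
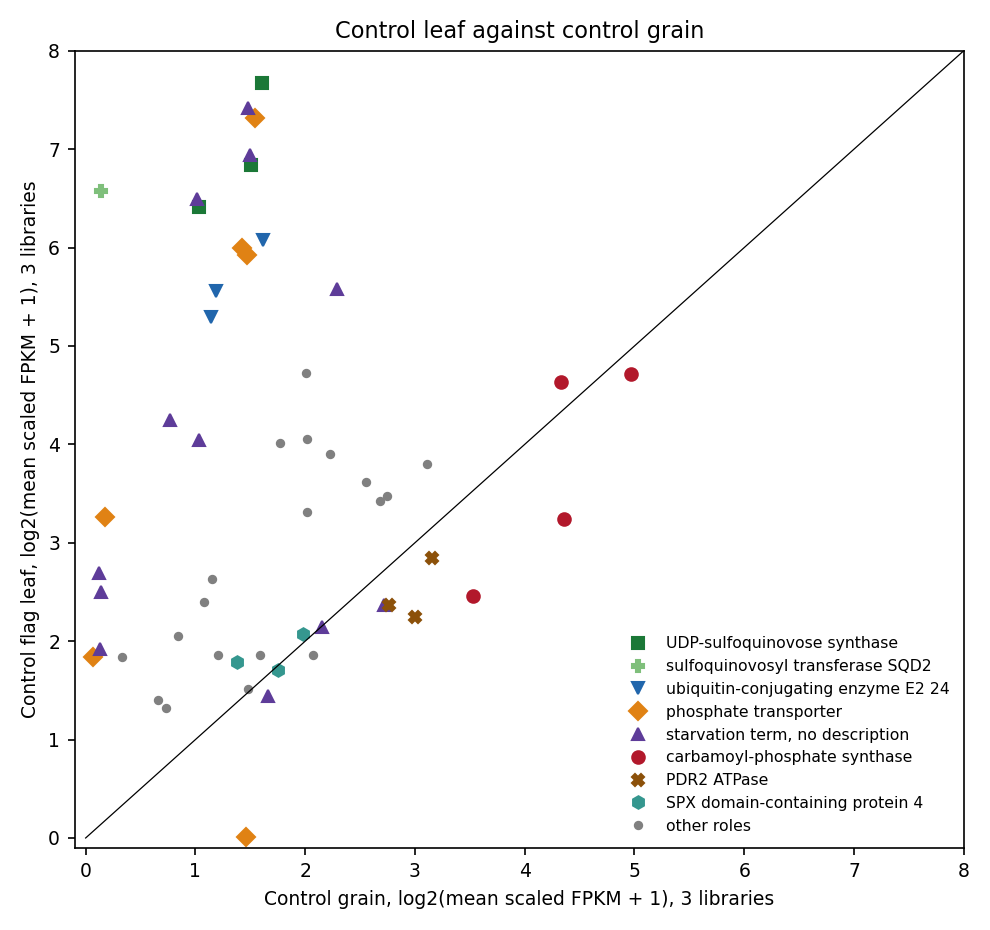
Mean level in control flag leaf against control grain, both as log2(mean scaled FPKM + 1) over 3 libraries, for the 54 loci tested, with the line of equal level. SQD1, SQD2, E2 24, 3 transporters and the abundant starvation-term loci lie far above the line, while the PDR2 loci, 3 of 4 carbamoyl-phosphate synthases and a transporter on 6DL lie below it.

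Genes of the wider phosphate economy, outside the 64 loci, give the setting in whole-spike leaves. Purple acid phosphatases, enzymes that free phosphate from organic molecules, fell at 26 of 41 tested loci and rose at 1, with a median of -1.21 on the log2 scale, where 9.64% of all genes tested were lower and 10.4% higher. None of the 41 passed after half-spike removal by limma, where 1.67% of all genes passed and the median of the 41 was -0.03. Probable inactive purple acid phosphatase 16 on 3AL (MSTRG.23759) went from 23.1 ± 3.79 to 1.24 ± 0.51 scaled FPKM (SD, n = 3), and purple acid phosphatase 10 on 3DL (MSTRG.31544) from 49.3 ± 7.96 to 8.77 ± 1.11. The locus that rose (MSTRG.51000, 5BS) went from 3.98 ± 0.87 to 11.1 ± 3.60.

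Soluble inorganic pyrophosphatases, which split pyrophosphate into phosphate, divided by isoform. The 3 copies of pyrophosphatase 2 fell, the 6BL copy (MSTRG.59923) from 74.3 ± 4.82 to 24.1 ± 7.37 scaled FPKM (SD, n = 3), and the 3 copies of the chloroplast pyrophosphatase 6 rose, the 6BL copy (MSTRG.59600) from 10.6 ± 1.01 to 22.4 ± 2.38. Phospholipases C and D fell at 5 of 17 tested loci and rose at 1, against the same 9.64% and 10.4% of all genes. The most abundant to fall was non-specific phospholipase C1 on 5DL (MSTRG.52046), an enzyme that releases diacylglycerol from phospholipids, at 324 ± 45.2 in controls, 232 ± 13.1 after half-spike removal and 121 ± 11.5 after whole-spike removal (limma adjusted p = 0.00241). Inositol polyphosphate kinases make the signals that SPX domains bind, but the list drawn here also held loci described as phosphatidylinositol 4-phosphate 5-kinase 9. Of its 11 tested loci, 1 rose (MSTRG.42863, 4DS) and none fell, where 10.4% of all genes tested were higher and 9.64% lower. None of 5 tested loci described as lipid phosphate phosphatases passed by limma.

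For comparison with other nutrients, 2 nitrate reductase loci fell and 1 rose of 4 nitrate uptake and reductase loci tested. In the same whole-spike leaves, 9.64% of all genes tested were lower and 10.4% higher. The 6DS nitrate reductase (MSTRG.64103) went from 35.9 ± 8.97 to 1.60 ± 0.45 scaled FPKM (SD, n = 3) and stood at 17.6 ± 1.72 after half-spike removal. Of 3 tested loci described as sulfate transporters, 1 fell both after whole-spike and after half-spike removal. It was probable sulfate transporter 3.4 on 7DS (MSTRG.73573), lower by 1.22 and 1.06 on the log2 scale (limma adjusted p = 0.00507 and 0.0476). These loci were listed by description alone, and what they carry was not tested. After half-spike removal, 0.520% of all genes tested were lower. In shaded grain, 1 of 21 purple acid phosphatases fell, where 1.45% of all genes tested were lower. No locus of these other lists passed in grain after half-spike removal by limma, where 0.0306% of all genes tested passed.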

How the data were processed

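The authors deposited gene FPKM for 18 libraries of poly(A) RNA read in pairs, and the submitters' processing notes name HISAT, StringTie and edgeR and give no version. The genome build, strand and duplicate handling are not given in the sources used here, and chromosome arms come from the gene names in the deposited table. Read counts were not used here, so absolute depth is unknown and precision rests on the spread between libraries. Relative depth was estimated from the FPKM worth of single fragments at low genes.

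For each fit, a library's FPKM was divided by its median ratio to a reference, the gene-wise geometric mean, taken over the genes detected in all libraries of that fit (70849 genes in leaf, 71470 in grain, 69174 in the 6 controls, 64684 in the 12 control and half-spike libraries). Genes reaching FPKM 1 in 3 or more of a fit's libraries (in the fit over both tissues, 3 or more of each) were tested as log2(scaled FPKM + 1) with limma 3.58.1 in R 4.3.3 (1 mean per group, trended variance), with Benjamini-Hochberg adjustment over all genes tested and a threshold of 0.05. Fold changes on this scale understate the change of low genes. The fit was also run on simulated data, with independent noise and with no low gene changed. That run does not cover low loci or reads placed on the wrong copy. Alternatives were other scalings, filters, a pseudocount of 0.1, the replicate number as a block, and each library left out.

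The loci, roles and lists were chosen with earlier results of these data known. Loci named by rule were, in each role, up to 3 largest rises and 3 largest falls called against control whose higher mean is at least 5 scaled FPKM, and the most abundant locus in each tissue. Their homoeologs, and further loci chosen after their values were seen (such as MSTRG.52891 and the called or low loci), are named to account for the set. Loci found by Gene Ontology text alone were sorted into roles by description or enzyme number after the table was seen. Lists named by text patterns for other acid phosphatases, plastid phosphate translocators and secreted ribonucleases matched no locus, and 2 PEP carboxylase loci were not tested. None of the 64 loci matched the reference gene table used here by name, so no positions or sequences are given. Same-numbered libraries correlated by -0.17 to 0.12 in leaf and -0.37 to 0.10 in grain in their deviations from group means, so the numbers were not taken to pair libraries.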

Additional observations from a re-analysis of the deposited data

How the results depend on the processing

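Of the 26 loci called after whole-spike removal in leaf, 21 kept their call and direction under every alternative run, and 5 lost it under at least 1 (MSTRG.53350, MSTRG.44975, MSTRG.26444, MSTRG.65852 and MSTRG.48437). No called locus reversed, while the uncalled transporter MSTRG.52891 turned to 0.65 without whole-spike library 1 and ranged from -2.45 to 0.65 with a library left out. The higher loci after whole-spike removal numbered 0 with a filter of FPKM 5, with no filter, with no scaling, with a pseudocount of 0.1 and under the replicate block, 3 with quantile normalization and 2 with scaling over tested genes, an alternative chosen after seeing the data. Against half-spike leaves, the higher loci numbered 1 with a filter of FPKM 5, 2 with no filter and 2 under the replicate block. After half-spike removal in leaf, 4 loci were lower with no scaling, where the median of all genes stands at -0.23 against 0.01, and 1 with quantile normalization. The leaf minus grain test called 4 lower with no scaling. In shaded grain, 0 were higher with a filter of FPKM 5, no filter, no scaling or the replicate block. The cause was not tested.

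Leaving out 1 library at a time gave 21 to 26 lower and 0 to 3 higher loci after whole-spike removal, 20 to 25 lower and 1 to 4 higher against half-spike leaves, 25 to 37 higher and 4 to 5 lower in leaf against grain, and 0 to 1 higher in shaded grain. It gave 0 to 0 in either direction after half-spike removal in leaf or grain and in the leaf minus grain test. Over all genes tested, the calls after half-spike removal in leaf numbered 812, and 186 to 854 with a library left out, 2046 with no scaling and 359 with no filter. After whole-spike removal they numbered 9746, and 5657 to 9657 with a library left out and 5143 with a filter of FPKM 5. Between whole-spike and half-spike leaves they numbered 8039, and 3998 without whole-spike library 2, 4195 without half-spike library 2 and 4550 without whole-spike library 3. In shaded grain they numbered 805, and 310 to 616 with a library left out. The replicate block gave 8193, 647 and 376 calls after whole-spike removal, half-spike removal and in shaded grain, and it cost the call of MSTRG.48437 in leaf and of MSTRG.30823 in grain. Low loci such as MSTRG.13227 are limited by depth, which is unknown.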
